A study of Mus musculus with 2 samples.

Results

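The somite and sclerotome transcription factors described here are 9 genes, Pax1, Pax9, Meox1, Meox2, Tcf15, Tbx18, Prrx1, Twist1 and Pax3, among 21367 genes or transcripts measured in the wall of the mouse aorta. They were chosen by name, with earlier results of these same arrays known, and 19 of the 41174 probes on the array carry one of these names. Because the choice rests on measured ratios, the ratios are given as a description and no test is attached to them. RNA of the aortic arch, which the labels call prone to atherosclerosis, was compared with RNA of the central thoracic aorta, which they call resistant. Both regions came from the same wild-type C57Bl/6 mice, 3 males and 3 females aged 16 weeks, with no other treatment named. Each aorta was perfused with the detergent Triton X-100 to strip the endothelium. The arch piece ran from the aortic root through the arch to 2 mm into the descending vessel, and the thoracic piece was the 6 mm beyond it. Each region is 1 pool of RNA from the 6 mice. Both pools went onto each of 2 two-colour Agilent arrays, in opposite dyes: array 1 carried the arch in Cy5, array 2 in Cy3. The pair of arrays is therefore a technical repeat of 1 comparison, and no difference below has a biological replicate check.

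Somites are blocks of paraxial mesoderm that form in pairs along the neural tube of the embryo. The ventral part of each somite, the sclerotome, is induced by hedgehog protein from the notochord and floor plate and forms vertebrae and ribs, while the dorsal dermomyotome forms skeletal muscle and dermis. Lineage tracing in mice has placed the origin of smooth muscle of the descending aorta in paraxial mesoderm and that of the arch largely in the cardiac neural crest. The arch piece used here also held the aortic root and 2 mm of the descending vessel, so arch against thoracic is no clean split by origin. Pax1 and Pax9 are paired-box factors of the sclerotome, and Meox1, Meox2, Tcf15 and Tbx18 act in the forming somite and in its patterning. Prrx1 and Twist1 are regulators of mesenchyme in general, including that of neural crest, and Pax3 marks dermomyotome and neural crest.

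Pax1 was much lower in the arch than in the thoracic aorta, and Tbx18 and Prrx1 were lower by smaller amounts. Meox1, Meox2, Tcf15 and Twist1 had ratios above 0 on both arrays, Tcf15 with signals near the floor, and Pax9 and Pax3 had ratios whose sign differed between the arrays. Ratios are given on the log2 scale as arch over thoracic aorta, as the mean of both arrays, and ± gives how far each array lay from it, which is a technical error only. Under the main processing (background correction with an offset of 50 intensity units, then loess normalisation), 1 of 9 members, Pax1, was at least 1.5-fold lower in the arch on each array, the call used throughout. Of all genes, 0.229% passed the same rule in that direction. No member was called higher, against 0.257% of all genes. The offset pulls the ratios of dim genes toward 0, so each ratio is also given without it and as computed by the scanner software. With an offset of 0, Pax1 and Tbx18 were called lower (0.487% of all genes) and 0 members higher (0.548%). By the scanner software's ratios, Pax1 and Tbx18 were called lower (0.599% of all genes) and Meox1 higher (0.711%). Nothing is read from these shares, since the choice of members used the same contrast.

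**Figure D1:**
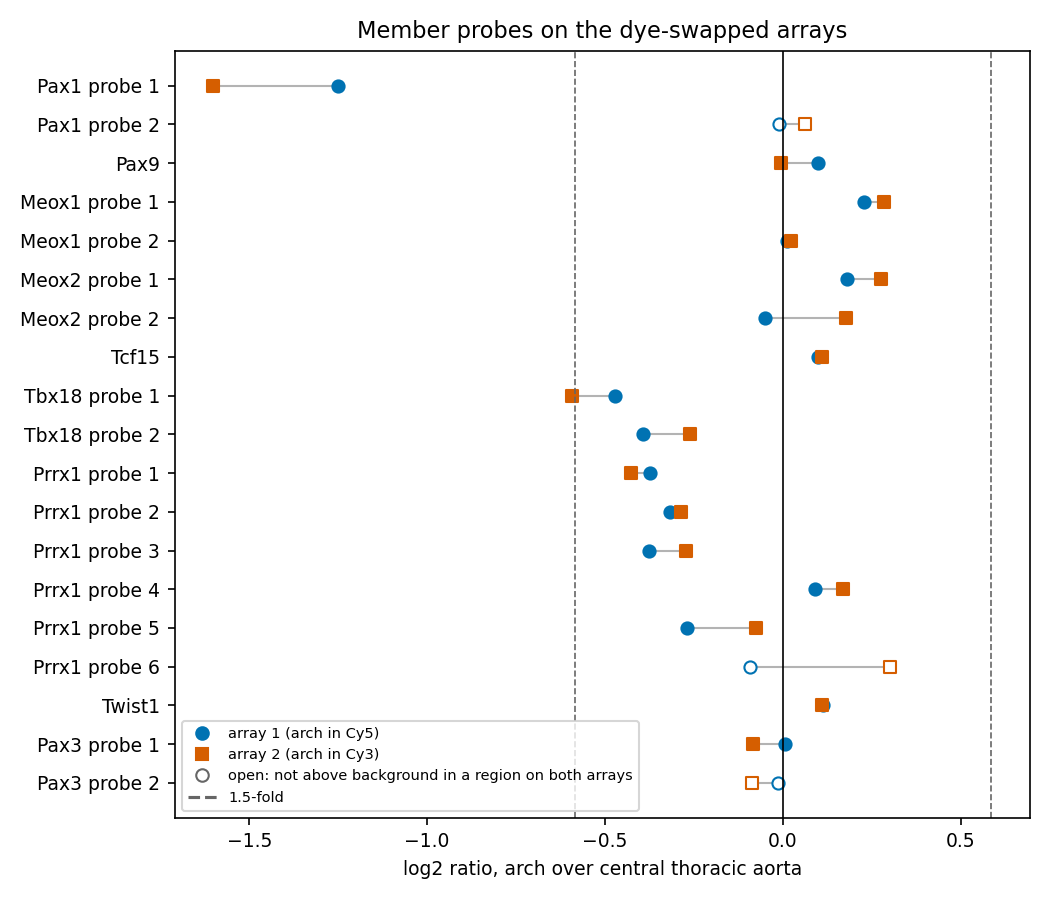
Log2 ratio of arch over central thoracic aorta (x axis) for each of the 19 member probes on array 1 (circles) and array 2 (squares), with the 1.5-fold lines dashed and open symbols for the 3 probes not kept. The detected Pax1 probe lies beyond the 1.5-fold line on both arrays, both Tbx18 probes lie to the left of 0, and no probe lies beyond the line on the right.

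Signals of most members were modest. Intensities are given above the local background of the spot. Negative control spots, which should bind nothing, kept a median of 10.3 (array 1) and 9.90 (array 2) units in Cy5, and of 27.1 and 25.9 in Cy3. Their 95th percentiles were 14.2 and 16.4 in Cy5 and 34.9 and 38.6 in Cy3. Cy3 thus carried a higher floor on both arrays, and raw signals of a dim gene cannot be compared across the dyes of an array. A reading within a dye avoids this, but it sets 1 array against the other before normalisation. The median gene spot read 39.2 on array 1 and 43.4 on array 2 in Cy5, and 55.9 and 54.4 in Cy3. Readings within a dye are therefore a description, and small gaps in them show no direction. The scanner software marked 71.3% to 81.5% of the gene spots in a channel as well above background. Of the member probes, 15 of 19 were well above background in all 4 channels, and 16 were kept because they were so in at least 1 region on both arrays. All 9 members had a kept probe, and no member spot was saturated or an outlier.

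**Figure D2:**
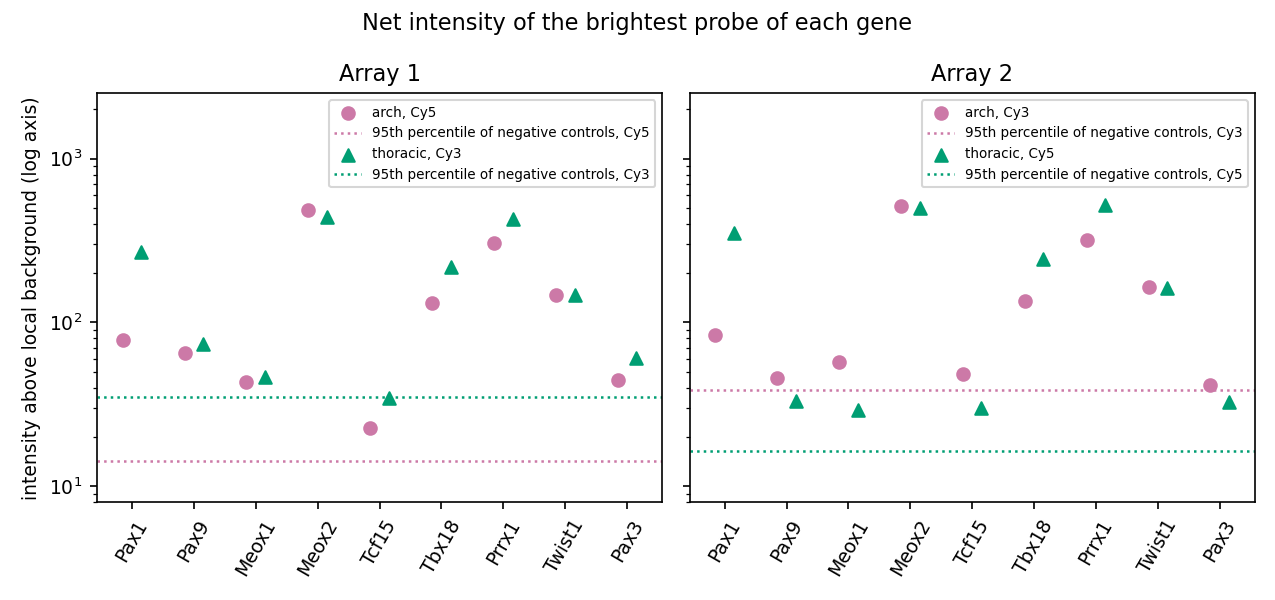
Intensity above local background (y axis, log scale) of the brightest kept probe of each member in the arch (circles) and thoracic (triangles) channels of each array, with dotted lines at the 95th percentile of negative controls in each dye. Pax1, Tbx18 and Prrx1 have their thoracic symbols above their arch symbols on both arrays, and Meox1, Tcf15 and Pax3 lie close to the control lines.

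Pax1, which drives sclerotome cells toward the cartilage of the vertebral column, showed the widest gap of the 9 members. Its detected probe (A_51_P145322, accession NM_008780) read 77.6 in the arch against 270.5 in the thoracic aorta on array 1, and 84.0 and 352.2 on array 2. Thoracic signals were higher than arch signals whichever dye they carried, and all 4 stood above the negative controls. The ratio was −1.25 on array 1 and −1.60 on array 2, a mean of −1.43 ± 0.18, or 2.69-fold lower in the arch. Without the offset it was −1.95 ± 0.24 (3.85-fold), and the scanner software gave −2.05 ± 0.19 (4.13-fold). Pax1 ranked the 9th lowest of the 21367 ratios and 14th by size. The arch signal was low but well above background on both arrays, so Pax1 RNA was detected in both regions. In RNA of a whole vessel wall, fewer cells that express a gene and less of its RNA per cell cannot be told apart.

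The other Pax1 probe (A_52_P511843) is annotated to the same accession and was not well above background in any of the 4 channels. It read 12.2 and 28.3 on array 1 and 28.2 and 10.5 on array 2 (arch, then thoracic), at the level of the negative controls of each dye. Its ratio of 0.03 ± 0.04 therefore carries no level of Pax1, and the Pax1 result rests on 1 probe. The 3 other named genes whose pair of ratios lay nearest to that of Pax1 over the 2 arrays were Mup4 (−1.40 ± 0.08, 0.14 away on the log2 scale), Fbln7 (−1.49 ± 0.08, 0.17 away) and Fhl2 (−1.32 ± 0.11, 0.18 away). They are respectively a major urinary protein, a fibulin of the extracellular matrix and a LIM-domain cofactor found in muscle. The genes on either side of Pax1 on its chromosome, Nkx2-2 and Foxa2, were not well above background in either region and gave no ratio.

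The 250 bases before the start of Pax1, and those of Tbx18 and Prrx1, are shown because these are the members whose brightest probes were lower in the arch on both arrays beyond 0.2 on the log2 scale. They come from RefSeq on GRCm38.p6 and are printed in the direction of transcription, with matches to the searched motifs in capitals. The windows are chr2:147364744-147364993 on the plus strand for Pax1, chr9:87731261-87731510 on the minus strand for Tbx18 and chr1:163313651-163313900 on the minus strand for Prrx1.
Pax1: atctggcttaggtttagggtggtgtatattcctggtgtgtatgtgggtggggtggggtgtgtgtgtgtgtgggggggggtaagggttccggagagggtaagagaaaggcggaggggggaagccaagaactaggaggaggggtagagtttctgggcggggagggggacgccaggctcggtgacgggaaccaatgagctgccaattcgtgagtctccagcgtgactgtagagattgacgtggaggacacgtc
Tbx18: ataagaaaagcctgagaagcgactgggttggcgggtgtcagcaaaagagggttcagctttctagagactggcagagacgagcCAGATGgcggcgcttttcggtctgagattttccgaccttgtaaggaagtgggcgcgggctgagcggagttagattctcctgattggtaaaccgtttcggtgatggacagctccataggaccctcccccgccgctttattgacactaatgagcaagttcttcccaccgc
Prrx1: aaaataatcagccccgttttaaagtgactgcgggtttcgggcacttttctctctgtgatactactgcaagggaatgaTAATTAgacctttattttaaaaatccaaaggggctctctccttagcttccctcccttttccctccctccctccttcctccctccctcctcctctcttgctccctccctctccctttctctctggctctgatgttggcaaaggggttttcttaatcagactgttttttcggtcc
The motifs were the E-box CANNTG, bound by basic helix-loop-helix factors such as Twist1 and Tcf15; the homeodomain core TAATTA; the Gli site GACCACCCA; the T-box half-site AGGTGTGA; and the TATA box TATAAA. Both strands were searched, and no matches overlapped. The Pax1 window held no match to any of them. The Tbx18 window held 1 E-box, 168 bases before the start, and the Prrx1 window held 1 homeodomain core, 173 bases before the start. Over 32851 RefSeq promoter windows of the same length, 66.2% held an E-box, 4.84% the homeodomain core, 0.225% the Gli site, 1.12% the T-box half-site and 12.4% the TATA box. GC content was 58.8% for Pax1, 54.0% for Tbx18 and 47.6% for Prrx1, against a median of 52.4%. The Tbx18 window held 15 CG pairs, that of Pax1 10 and that of Prrx1 4, with a median of 6 over all windows. A match of letters is a description of the sequence, and a missing match says only that these letters are not in this window.

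Pax9, the closest relative of Pax1 and its partner in the sclerotome, did not share its ratio. The only Pax9 probe (A_52_P593379) read 65.1 in the arch against 73.9 in the thoracic aorta on array 1, and 45.6 and 33.1 on array 2. On each array the channel in Cy3 was the brighter one, as it was for the negative controls. Read within a dye the direction was not the same, with the arch higher in Cy5 (65.1 against 33.1) and lower in Cy3 (45.6 against 73.9). The ratio was 0.10 on array 1 and −0.00 on array 2, a mean of 0.05 ± 0.05, and 0.09 ± 0.07 by the scanner software. Pax9 thus differed between the regions by no more than the arrays differed from each other. Its 250 bases upstream held 1 E-box, 210 bases before the start.

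Of the members of the forming somite, Tbx18 was lower in the arch with both of its probes. Tbx18 is a T-box factor that keeps the anterior identity of each somite and also marks mural cells of blood vessels and the epicardium. Its brighter probe (A_51_P438711) read 132.2 in the arch against 219.0 in the thoracic aorta on array 1, and 135.6 and 243.0 on array 2. The dimmer probe (A_52_P279263) read 43.1 and 88.6 on array 1 and 70.6 and 86.2 on array 2. Thoracic signals of both probes were above arch signals on both arrays, and also when read within each dye. The ratio of the brighter probe was −0.53 ± 0.06, or 1.45-fold lower, which missed the 1.5-fold line on array 1 (−0.47) and passed it on array 2 (−0.59). Without the offset the ratio was −0.70 ± 0.08 (1.62-fold), and by the scanner software −0.72 ± 0.07 (1.65-fold), both past the line on each array. The dimmer probe gave −0.33 ± 0.07, and −0.73 ± 0.19 by the scanner software. Tbx18 ranked the 77th lowest of all genes.

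Mural and mesothelial markers are given beside Tbx18, since both kinds of cell can express it. Of 8 pericyte markers, all 8 were above background in both regions, 4 lay below 0 and 4 above, and none was called. Their median was −0.01, and the widest ratios were Mcam at −0.53 ± 0.01 (its other probe at −0.24), the regulator of G-protein signalling Rgs5 at −0.36 ± 0.07 and the receptor Notch3 at −0.18 ± 0.08. Their summed normalised level, which includes the offset for each gene, was 6665 and 6694 in the arch and 7348 and 7329 in the thoracic aorta (arrays 1 and 2). The 8 mesothelial and epicardial markers were all above background in both regions and all lay above 0, opposite to Tbx18. Their median was 0.35, the widest were Upk3b at 0.65 ± 0.12, Msln at 0.54 ± 0.05 and Krt19 at 0.43 ± 0.15, and 5 of the 8 were called higher by the scanner software's ratios. Their summed level was 1505 and 1572 in the arch and 1115 and 1136 in the thoracic aorta. Smooth muscle markers, which define the tissue named in the labels, were above background in both regions for 9 of 9 genes, with a median of −0.06 and none called, the widest being Des at −0.22 ± 0.01, Myh11 at −0.22 ± 0.03 and Mylk at −0.10 ± 0.09. What part any of these cells has in the Tbx18 ratio was not tested.

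Meox1 and Meox2 are homeobox factors that together are needed to pattern the somite into sclerotome and dermomyotome, and both were on the arch side of 0. The brighter Meox1 probe (A_51_P463536) read 43.2 in the arch against 46.3 in the thoracic aorta on array 1, and 57.0 and 29.4 on array 2. Read within a dye, the arch was above the thoracic aorta in both, 43.2 against 29.4 in Cy5 and 57.0 against 46.3 in Cy3. The ratio was 0.26 ± 0.03 under the main processing, 0.66 ± 0.11 without the offset and 0.88 ± 0.03 by the scanner software. The last is 1.84-fold higher in the arch and past the 1.5-fold line on both arrays, while the first is 1.19-fold. The other Meox1 probe (A_52_P327923), for the same accession, read 21.4 and 37.4 on array 1 and 35.5 and 19.8 on array 2. It gave 0.02 ± 0.01, and −0.04 ± 0.12 by the scanner software. The Meox1 call thus depended on the processing and on the probe.

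The bright Meox2 probe (A_51_P383001) read 487.5 in the arch against 437.9 in the thoracic aorta on array 1, and 516.0 and 502.9 on array 2. Meox2 is also known as a growth-arrest homeobox gene of vascular smooth muscle. Read within a dye and before normalisation, its arch signal was lower in Cy5 (487.5 against 502.9) and higher in Cy3 (516.0 against 437.9). After normalisation the ratio was 0.23 ± 0.05, and 0.27 ± 0.04 by the scanner software, higher in the arch on both arrays by a small amount. With each array centred on its median in place of loess it was 0.07, so the size of the ratio depends on the intensity correction. The dimmer Meox2 probe (A_52_P326096) read 37.3 and 57.1 on array 1 and 60.9 and 39.7 on array 2, and its ratio changed sign between the arrays (−0.05 and 0.18). Meox2 had 1 E-box 82 bases and a TATA box 29 bases before its start. Of the 6 members with a promoter entry, the only other one with a TATA box was Twist1, 126 bases before its start.

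Tcf15, also called paraxis, is a basic helix-loop-helix factor that makes somite cells epithelial. Its probe (A_51_P508580) was near the floor, reading 22.7 in the arch against 34.4 in the thoracic aorta on array 1 and 48.4 and 29.8 on array 2. It was well above background in the arch on both arrays and in the thoracic aorta on 1 of 2 arrays. Read within a dye the direction was not the same, with the arch lower in Cy5 (22.7 against 29.8) and higher in Cy3 (48.4 against 34.4). The ratio was 0.10 ± 0.01, 0.33 ± 0.01 without the offset and 0.52 ± 0.23 by the scanner software. The small errors of the first 2 values do not show a precise level, since 1 of the 4 signals was not above background, and no direction is drawn for Tcf15. Tcf15 is also expressed in capillary endothelium of fat and muscle. Of 12 endothelial markers, 11 were measured with a median of 0.11, 4 below 0 and 7 above, and none was called. The widest were Fabp4 at 0.34 ± 0.09, Vwf at 0.26 ± 0.02 and Emcn at 0.25 ± 0.02, while Esam was at −0.16 ± 0.02, Cdh5 at −0.05 ± 0.02, Tek at −0.04 ± 0.04 and Pecam1 at −0.02 ± 0.05. Tie1 was not above background, and Cdh5 was above background in the arch on only 1 of 2 arrays. The summed level of the endothelial markers measured was 24543 and 23211 in the arch and 18503 and 19604 in the thoracic aorta. This sum weighs bright genes most and was not read as an amount of endothelium. Brown adipocyte markers had a median of 0.58, with 4 of 8 called higher, and white adipocyte markers a median of 0.37, with 2 of 7 called higher. Of the brown fat markers 6 lay above 0 and 2 below, Prdm16 at −0.19 ± 0.06 and Elovl3 at −0.10 ± 0.02. Of the white fat markers 6 lay above 0 and 1 below, Retn at −0.25 ± 0.03. The widest were Cox7a1 at 0.89 ± 0.05, Cidea at 0.81 ± 0.03 and Cox8b at 0.78 ± 0.07 of brown fat, and Plin1 at 0.68 ± 0.00, Adipoq at 0.66 ± 0.06 and Lpl at 0.54 ± 0.07 of white fat. Summed levels of the brown fat markers were 11161 and 10676 in the arch and 6826 and 6994 in the thoracic aorta, and those of the white fat markers were 17415 and 17395 against 13469 and 13186. All markers of both lists were above background in both regions. Their part in the Tcf15, Meox1 and Meox2 ratios was not tested.

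**Figure D3:**
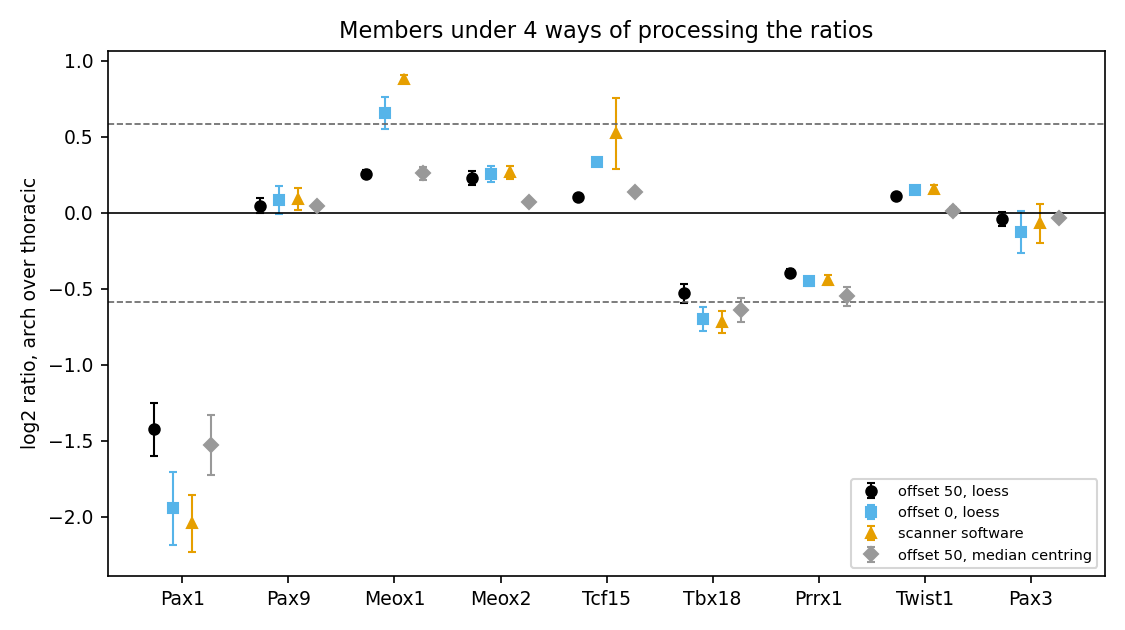
Log2 ratio of arch over thoracic aorta (y axis) of each member under 4 ways of processing, with bars from one array to the other and the 1.5-fold lines dashed. Pax1 stays below the lower line in all 4, Tbx18 crosses it for its whole bar without the offset and by the scanner software, and Meox1 crosses the upper line for its whole bar by the scanner software.

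Prrx1, a homeobox factor of limb, facial and vascular mesenchyme, was lower in the arch by the 3 probes annotated to its RefSeq transcript NM_011127. The brightest of them (A_51_P209771) read 307.2 in the arch against 428.4 in the thoracic aorta on array 1, and 319.0 and 519.1 on array 2. The second (A_51_P209778) read 229.4 and 315.0 on array 1 and 221.8 and 317.0 on array 2, and the third (A_52_P483713) read 165.3 and 246.1 on array 1 and 199.3 and 279.1 on array 2. For each of the 3, the thoracic signal was above the arch signal on each array and within each dye. Their ratios were −0.40 ± 0.03, −0.30 ± 0.01 and −0.32 ± 0.05, of which the brightest is 1.32-fold lower, and none passed the 1.5-fold line. The scanner software gave −0.45 ± 0.03, −0.36 ± 0.01 and −0.42 ± 0.07.

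The other Prrx1 probes did not all share that direction. The probe for the cDNA AK038736 (A_51_P262972) read 145.3 in the arch against 149.5 in the thoracic aorta on array 1, and 189.6 and 180.9 on array 2, with a ratio of 0.13 ± 0.04. The probe for NM_175686 (A_52_P335587) was dim, with a ratio of −0.17 ± 0.10. The probe for AK029347 (A_52_P480842) was above background only where it was in Cy3, with 36.1 in the thoracic aorta on array 1 and 42.0 in the arch on array 2. Its scanner ratios of −0.63 and 1.74 had opposite signs on the arrays, and it was not kept. With the mean over the 5 kept probes in place of the brightest, the ratio of Prrx1 was −0.21. The paralogue Prrx2, with 1 kept probe, was called higher in the arch at 0.63 ± 0.01 (0.74 ± 0.01 by the scanner software), opposite to the RefSeq probes of Prrx1.

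Twist1, a basic helix-loop-helix factor that keeps mesenchyme undifferentiated, was nearly level. Its probe (A_52_P20906) read 146.8 in the arch against 148.0 in the thoracic aorta on array 1, and 164.8 and 162.6 on array 2. Within a dye and before normalisation, the arch was lower in Cy5 (146.8 against 162.6) and higher in Cy3 (164.8 against 148.0). The ratio was 0.11 on both arrays (0.11 ± 0.00), 0.16 ± 0.02 by the scanner software and 0.01 with median centring. With median centring its sign differed between the arrays (0.03 on array 1 and −0.01 on array 2). Twist2, its paralogue, was at 0.17 ± 0.02. Adventitial fibroblasts are mesenchymal cells that could carry Prrx1 and Twist1. All 9 of their markers were above background in both regions, with a median of 0.04 and none called. Lum, a matrix proteoglycan, was at 0.55 ± 0.06, and Pdgfra at 0.55 ± 0.15, though its other probe was at 0.01, and Scara5 was at 0.22 ± 0.24. Their summed level was 68365 and 68308 in the arch and 61567 and 65206 in the thoracic aorta, and their part in the ratios was not tested.

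Pax3, the paired-box factor of dermomyotome and neural crest, was dim and did not differ beyond the distance between the arrays. The probe for the cDNA AK048723 (A_52_P169747) read 44.7 in the arch against 60.9 in the thoracic aorta on array 1, and 41.3 and 32.5 on array 2, for a ratio of −0.04 ± 0.05. Within a dye its arch signal was higher in Cy5 (44.7 against 32.5) and lower in Cy3 (41.3 against 60.9). The probe for the RefSeq transcript NM_008781 (A_51_P315734) was well above background in 1 of 4 channels and was not kept. Skeletal muscle markers, of which all 12 were measured, had a median of 0.00 and none called, with Tnnc2 at −0.25 ± 0.03, Myod1 at 0.13 ± 0.15 and Myh4 at 0.07 ± 0.02. Schwann cell and melanocyte markers had a median of 0.05 over the 9 measured, with none called and Tyrp1 not above background. The widest were Mitf at 0.27 ± 0.00, with its other probe at −0.16, S100b at 0.12 ± 0.12 and Foxd3 at 0.06 ± 0.11.

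**Figure D4:**
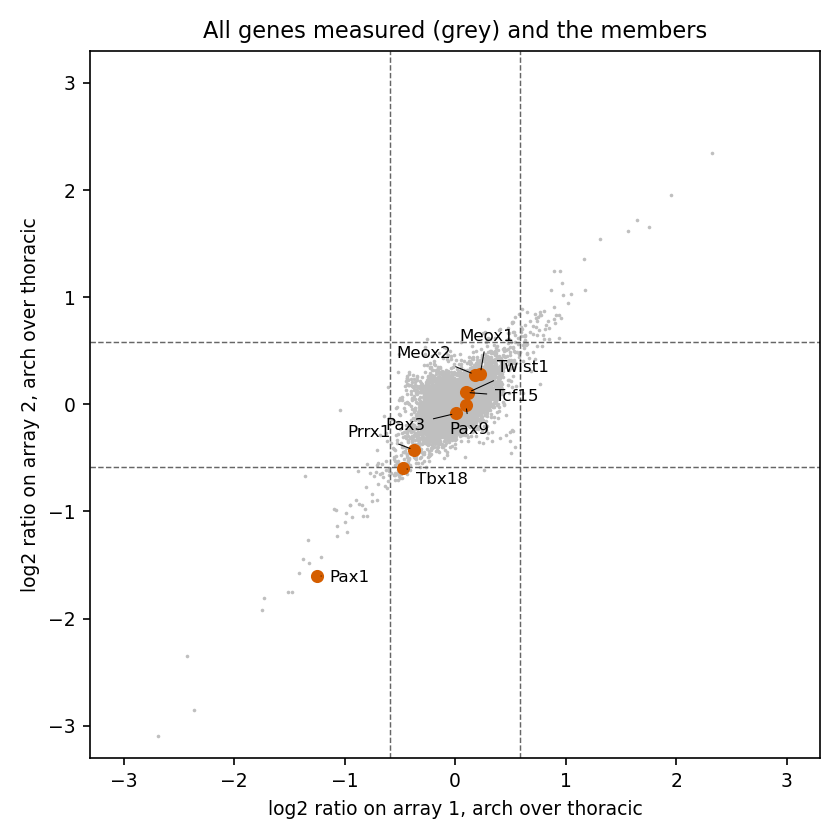
Log2 ratio of arch over thoracic aorta on array 1 (x axis) and on array 2 (y axis) for all 21367 genes measured (grey) and for the 9 members (coloured and named), with the 1.5-fold lines dashed. Pax1 lies far out on the lower left at −1.25 and −1.60, Tbx18 and Prrx1 lie at the lower left edge of the main cloud, and the other 6 members lie inside it.

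As a list, the members had a median ratio of 0.05, against 0.00 for all genes, with 4 below 0 and 5 above. The median size of their ratios was 0.23, against 0.04 for all genes, and 5 of 9 lay beyond 0.2 in either direction, a range within which 93.1% of all genes lay. The sign was the same on both arrays for 7 of 9 members and for 54.9% of all genes. Nothing is read from these contrasts with all genes, since the members were chosen with earlier results of the same arrays known. The technical error of a ratio (±, as above) had a median of 0.05 for the members and 0.04 for all genes, with a 95th percentile of 0.13 over all genes. Counted by probe, 7 of the 16 kept probes were lower in the arch on both arrays, 6 were higher on both and 3 changed sign. The 9 factors did not lie on one side as a list, and the members lower in the arch were Pax1, Tbx18 and Prrx1. Genes next to the members on their chromosomes were measured in 12 of 18 cases, and none was called under the main processing. The widest were Agmo beside Meox2 at 0.29 ± 0.04, Hdac9 beside Twist1 at −0.25 ± 0.01 and Nt5e beside Tbx18 at 0.21 ± 0.03. By the scanner software's ratios Nt5e was at 0.75 ± 0.11 and was called higher in the arch, opposite to Tbx18.

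Other regulators of paraxial mesoderm and somites were listed together with the T-box factors Tbx2, Tbx3, Tbx5 and Tbx20. Of these 34 genes, 27 were measured, with a median of 0.01, 0 called lower and 1, Prrx2, called higher. Snai2, a repressor active in epithelial-mesenchymal transition, was at −0.50 ± 0.05, and the forkhead factor Foxc2, needed for somites and the aortic arch, was at −0.37 ± 0.02. By the scanner software's ratios Snai2 (−0.67 ± 0.03) and Eya2 (−0.79 ± 0.06) were called lower. Eya2, named after its values were seen, was above background in the arch on only 1 of 2 arrays. Of the 27 genes, 11 lay below 0 and 16 above.

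Regulators of sclerotome and cartilage other than Pax1 and Pax9 had a median of 0.08 over 14 of 15 genes, and 0 were called in either direction. Foxd1, a forkhead factor of stromal mesenchyme, was at −0.53 ± 0.02 with a second probe at −0.59, and was called lower by the scanner software's ratios (−0.83 ± 0.05). The homeobox factor Meis2 was at 0.33 ± 0.02. Sox9, the main regulator of cartilage, was at 0.31 ± 0.12, with its 3 probes between 0.06 and 0.34. Nkx3-2, which acts with Pax1 and Pax9 in the sclerotome, was at 0.00 ± 0.06. Cartilage markers, which would accompany attached skeletal tissue, had a median of 0.10 over 7 measured, and Col9a1, Matn1 and Matn3 were not above background. The widest were Comp at 0.20 ± 0.11, Acan at 0.16 ± 0.03 and Col11a1 at 0.11 ± 0.04. Bone markers had a median of 0.19 over 4 measured, with Bglap and Ibsp not above background. The phosphatase Alpl was at 0.49 ± 0.02 and was called higher by the scanner software's ratios (0.69 ± 0.00), Phex was at 0.37 ± 0.03 (0.64 ± 0.11 by the scanner software), and Dmp1 was at −0.02 ± 0.02. Thymus markers, relevant because Pax1 and Pax9 are also expressed in thymic epithelium, had a median of 0.05 over 9 measured, with summed levels of 1101 and 1078 in the arch and 1051 and 1060 in the thoracic aorta. The widest thymus ratios were Ccl25 at 0.13 ± 0.04, Rag1 at 0.12 ± 0.07 and Dntt at 0.08 ± 0.10. Apart from Alpl by the scanner software, no cartilage, bone or thymus marker was called in either direction under the main processing or by the scanner software. What part cartilage, bone or thymus has in the Pax1 ratio was not tested.

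Of the hedgehog pathway, which induces Pax1 in the sclerotome, 12 of 14 genes were measured, with a median of 0.02 and 0 called in either direction. The decoy receptor Hhip was at −0.39 ± 0.03, and at −0.78 ± 0.06 by the scanner software, which called it lower, while its other probe was at −0.19. The receptor Ptch1 was at 0.32 ± 0.08, and at 0.92 ± 0.30 by the scanner software, which called it higher, while its other probe was at 0.03. The coreceptor Boc was at 0.23 ± 0.08, with its other probe at −0.02. The transcription factors Gli1 (0.01 ± 0.06), Gli2 (−0.04 ± 0.07) and Gli3 (−0.03 ± 0.00) were near 0, and Shh itself was not above background. Targets and components of the pathway thus did not lie on one side.

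The 5 other Pax genes measured (Pax2, Pax4, Pax5, Pax6 and Pax8) had ratios between −0.16 and 0.01 with a median of −0.01 and 0 called, the widest being Pax5 at −0.16 ± 0.02, Pax4 at −0.02 ± 0.10 and Pax6 at 0.01 ± 0.02. E proteins and inhibitors that pair with Twist1 and Tcf15 were listed together with Hand1, Hand2 and Tcf21. Of these 10 genes, 9 were measured, with a median of 0.16 and 0 called. Hand2, a factor of heart and neural crest mesenchyme, was at 0.36 ± 0.04, the E protein Tcf4 at 0.31 ± 0.01 and the inhibitor Id4 at 0.20 ± 0.15, with its other probe at 0.07. Tcf21, a factor of epicardial and fibroblast precursors named after its values were seen, was at 0.71 ± 0.13 and was called higher by the scanner software's ratios. It was above background in the thoracic aorta on only 1 of 2 arrays.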

How the data were processed

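RNA of 1 pool per region was compared on 2 arrays that swap the dyes, from 1 µg per labelling and with RNA integrity numbers from 7.5 to 7.7 per the labels. Per the submitters' processing notes, the scans were read with Agilent Feature Extraction, version 9.1.1.1. Its deposited output holds, for every spot, the intensity of the mean signal and of the local background in each dye, and a log10 ratio of the dye-normalised signals, per the file headers. The deposited series value table held the same log10 ratio, signed as arch over thoracic, in 99.9% of features (tolerance 1e-06).

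From the intensities, background was corrected by normexp (offset 50) and ratios normalised by loess within arrays with limma 3.58.1 in R 4.3.3, with control spots at weight 0 and outlier spots (20 and 4) left out. The sign of array 2 was turned. Summed levels use Aquantile normalisation and weigh bright genes most, so they do not measure the amount of a cell type. A probe was kept if at least 1 region was well above background on both arrays (30521 of 41174 probes), and a gene took its brightest kept probe. Symbols came from a RefSeq table (GRCm38.p6), used for names and neighbours. The array files name no build. Promoter windows were found for 6 of 9 members. Named genes are all members, up to 3 per list with the largest ratios among those above background in both regions, and the 3 nearest to Pax1. Further list genes, such as Gli1, Nkx3-2, Twist2 and Esam, were named after their values were seen. Members and lists were chosen with earlier results of these data known. The scripts were tested on simulated data. The 2 arrays repeat 1 pool per region, a technical dye swap, so no test was made, and their number limits the precision.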

Additional observations from a re-analysis of the deposited data

How the results depend on the processing

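Pax1 was called lower in all 11 alternatives tried (lowest ratio −2.05, highest −1.25), but several of them could not change its call. Only 1 Pax1 probe was kept, so no filter, a filter on both regions and the mean over probes left its main ratio of −1.43. The 1.3-fold rule and each array alone follow from the main call, and the value table repeats the scanner ratios. In the mean of both arrays, every member kept its sign under offset 0, scanner ratios, the value table, median centring, no filter on dim probes and the mean over probes. Array 1 alone turned Pax3 and array 2 alone turned Pax9, and a filter on both regions dropped Tcf15. Against 1 member called lower, 2 (Pax1 and Tbx18) were called with offset 0, scanner ratios, the value table, a 1.3-fold rule and array 2 alone. Against 0 called higher, 1 (Meox1) was called by scanner ratios and the value table. Of all genes, 49 were called lower and 55 higher under the main processing. Lower and higher calls numbered 104 and 117 with offset 0, 128 and 152 by scanner ratios and by the value table, 112 and 134 with a 1.3-fold rule, and 15 and 9 with a 2-fold rule. Median centring gave 75 lower and 28 higher, so that 27.2% of calls were higher against 52.9%, and moved the median of all genes by −0.04. The median of the members was 0.08 with offset 0, 0.09 by scanner ratios, 0.01 with median centring and −0.00 with array 2 alone. Signals near the negative controls limit Meox1, Tcf15, Pax3 and Pax9. No paired analysis was possible because each region is 1 pool and the result comes from no test.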
